A study of Arabidopsis thaliana with 15 samples.

Results

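The genes described here encode proteins that build or loosen the plant cell wall: expansins, xyloglucan endotransglucosylase/hydrolases (XTH) and cellulose synthase-like proteins (CSL). They were chosen by name, as the genes whose symbol or synonym begins with EXPA, EXPB, EXLA, EXLB, XTH, CESA or CSL (with or without a leading AT) and that had a probe set of their own. This gave 37 genes of the 13356 with a single-gene probe set: 19 expansins, 10 XTH genes and 8 CSL genes. The naming rule fits 38 expansins, 33 XTH genes and 32 CSL genes, so these are a part of each family. The annotation used gave no gene for 8730 of the 22746 probe sets. None of the 10 CESA genes, which encode the catalytic subunits that make cellulose itself, had a single-gene probe set in that annotation. The name "cellulose synthases" therefore covers only CSL genes here, and no CESA gene is measured below.

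A growing leaf cell enlarges by letting its wall yield to internal pressure while new wall material is added. Expansins loosen the wall without cutting its polysaccharides, and XTH enzymes cut and rejoin (some hydrolyse) xyloglucan, a polysaccharide bound to cellulose. CSL enzymes make backbones of wall polysaccharides. CSLC proteins make the glucan backbone of xyloglucan, CSLA proteins make mannans, and CSLD proteins act in tip-growing cells such as root hairs. UV-B light is known to restrain leaf growth. UVR8 is the photoreceptor that perceives UV-B. HY5, a transcription factor of the bZIP class, acts downstream of several photoreceptors, UVR8 among them.

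Leaf RNA of Arabidopsis thaliana was measured on 15 Affymetrix ATH1 arrays, 3 for each of 5 groups, all of accession Landsberg erecta. The groups were the hy5-1 mutant under UV-B, the uvr8-1 mutant under UV-B, wildtype under UV-B, and uvr8-1 and wildtype kept in white light. All plants spent 3 weeks on compost at 21 °C, lit without a dark period by 25 µmol m-2 s-1 of white light. The UV-B treatment lasted 4 h at 3 µmol m-2 s-1. No hy5-1 array in white light was used, so a UV-B response of hy5-1 could not be computed. The arrays of a group are labelled as biological replicates, and how many plants each stands for is not stated there. Their number, 3 per group, limits the precision.

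Levels are log2 RMA values, on which a difference of 1 is a doubling. They compare arrays for 1 gene and cannot rank genes against each other. The array medians lay between 4.31 and 4.40. Differences were tested with limma over all 22746 probe sets, a gene was called at a Benjamini-Hochberg adjusted p under 0.05, and errors after ± are standard errors of a difference unless SD is written. All 37 genes were tested, with no filter on low values. Of these, 16 had a mean below 3.74, the value under which the dimmest 40% of probe sets lie, and are termed dim here. The 4 measured leaf mesophyll markers (LHCB4.1, LHCB4.2, LHCB4.3 and RCA) all lay above this limit in every group. EXPB5, the only measured pollen and flower marker, and the root hair markers EXPA7 and EXPA18 were dim, while the root gene PYK10 lay above the limit in every group. The 3′ minus 5′ difference, averaged over the actin, GAPDH and ubiquitin control probe sets, shows whether both ends of transcripts are equally covered. It averaged 2.78 ± 0.32 in hy5-1 (SD, n = 3), against group means between 1.83 and 2.18 elsewhere. In this average the hy5-1 arrays did not overlap any other array. The shift was largest for GAPDH, with a mean of 2.65 in hy5-1 against 0.80 to 1.25 elsewhere, without overlap. Ubiquitin averaged 1.84 in hy5-1 against 1.14 to 1.45 elsewhere, and actin 3.87 against 3.49 to 3.85. For ubiquitin and actin the hy5-1 arrays overlapped those of other groups.

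In wildtype, 4 h of UV-B lowered 14 of the 37 genes and raised 2, 16 calls in all. Over all probe sets 30.5% were called, 18.3% lower and 12.2% higher. The share of the cell wall genes called lower was 37.8%. Among the 21 genes that were not dim, 14 (66.7%) were lower, against 28.0% of all probe sets that were not dim. The median difference of the 37 genes was −0.20, against −0.04 over all probe sets. By family, 8 of 19 expansins were lower and none higher, 2 of 10 XTH genes were lower and 2 higher, and 4 of 8 CSL genes were lower and none higher. The falls thus lay mostly among expansins and CSL genes, while as many XTH genes were higher as lower. These family counts are not like for like, since only 5.63% of all dim probe sets were called. XTH19, XTH20, XTH21, XTH26, XTH29 and XTH33 were dim, as were 8 of 19 expansins and, of the CSL genes, CSLA01 and CSLC12. The UV-B and white-light arrays did not overlap for any of the 16 called genes, which were called on these same arrays. Some genes without a call, such as EXPA15 and CSLD2, did not overlap either, so the lack of overlap adds no support.

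**Figure D1:**
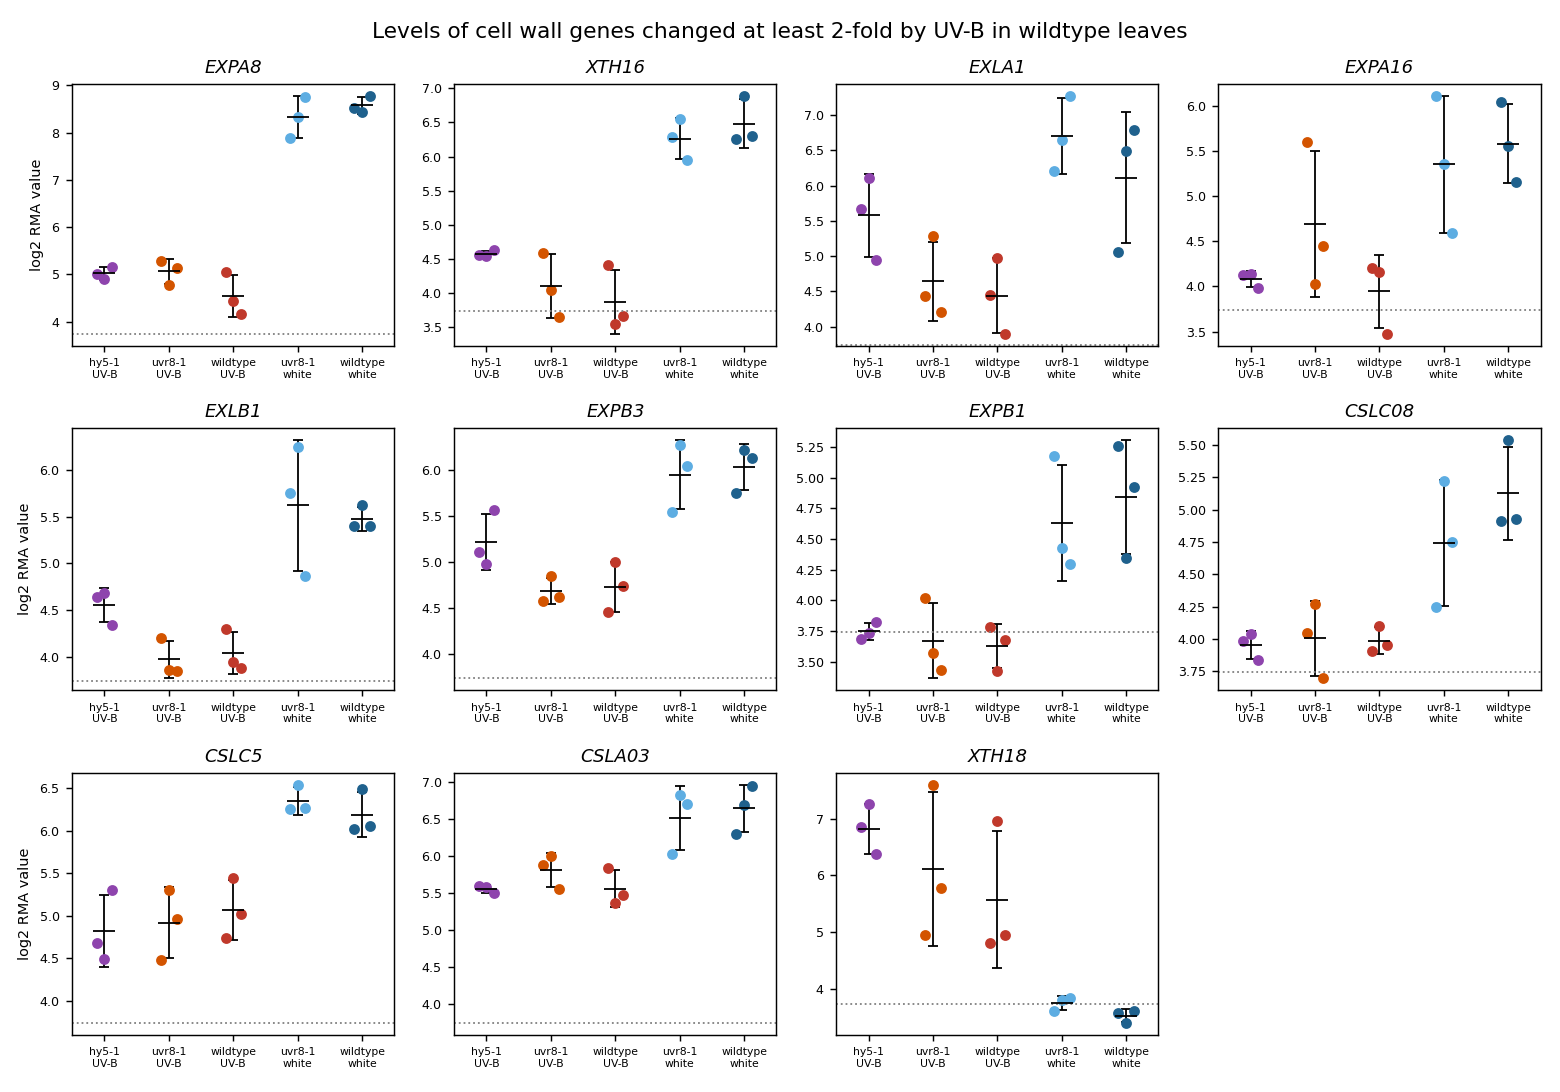
Levels (log2 RMA value, vertical axis) of the 11 cell wall genes called and changed at least 2-fold by UV-B in wildtype. Dots are single arrays, the long bar and whiskers are the mean ± SD of 3 arrays, and the dotted line is the dim limit of 3.74. XTH18 is the only one of these genes with its wildtype UV-B arrays above the wildtype white-light arrays.

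EXPA8, an alpha-expansin, had levels of 5.04, 4.44 and 4.17 on the wildtype UV-B arrays, against 8.52, 8.44 and 8.79 in white light. All UV-B arrays lay far below the white-light arrays. EXPA8 fell by 4.03 ± 0.24 (adjusted p = 8.03e-08), or 16.4-fold, the largest difference among the 37 genes in this comparison. The alpha-expansin EXPA16 had 4.20, 4.16 and 3.48 under UV-B, against 6.04, 5.55 and 5.16 in white light. Its difference was −1.64 ± 0.41 (adjusted p = 0.00776). Here too no UV-B array reached the white-light range. EXPA4, a further alpha-expansin, had 5.54, 6.53 and 5.60 under UV-B, against 6.87, 7.14 and 6.58 in white light. UV-B replicate 2 came within reach of the lowest white-light array, and EXPA4 fell by 0.98 ± 0.34 (adjusted p = 0.0456), the highest adjusted p among the 16 calls. The other 7 alpha-expansins were not called, and 4 of them (EXPA7, EXPA18, EXPA21 and EXPA24) were dim.

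Beta-expansins are a second branch of the family, best known from grasses. EXPB3 had levels of 4.46, 5.0 and 4.74 under UV-B, against 5.76, 6.22 and 6.13 in wildtype in white light. EXPB1 had 3.78, 3.43 and 3.67 under UV-B, against 5.26, 4.34 and 4.92 in white light. EXPB3 fell by 1.30 ± 0.21 (adjusted p = 0.000357) and EXPB1 by 1.21 ± 0.25 (adjusted p = 0.00221), and their UV-B arrays all lay below their white-light arrays. EXPB1 lay near the dim limit under UV-B. EXPB2 and EXPB5 were dim and not called.

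The expansin-like genes encode proteins related to expansins whose effect on walls is not established. EXLA1 had levels of 4.45, 4.97 and 3.90 under UV-B, against 5.06, 6.49 and 6.79 in wildtype in white light. White-light replicate 1 stood close to the UV-B arrays, and the difference was −1.67 ± 0.47 (adjusted p = 0.0147). EXLB1 had 4.30, 3.95 and 3.88 under UV-B, against 5.40, 5.63 and 5.41 in white light, a tight group on each side and a difference of −1.44 ± 0.26 (adjusted p = 0.000924). EXLA2 fell by 0.64 ± 0.19 (adjusted p = 0.0173). EXLA3, which lies next to EXLA1 in the genome with no protein-coding gene between them, was dim, and its difference was −0.07.

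Among the XTH genes, XTH16 had levels of 4.41, 3.55 and 3.66 under UV-B, against 6.25, 6.89 and 6.30 in wildtype in white light. It fell by 2.61 ± 0.27 (6.10-fold, adjusted p = 8.37e-06), second only to EXPA8 among the 37 genes in this comparison. XTH27, listed under its older name EXGT-A3 and known from leaf vein tracheary cells, fell by 0.59 ± 0.15 (adjusted p = 0.00704). XTH18 went the other way, with 4.81, 6.96 and 4.96 under UV-B, against 3.59, 3.41 and 3.61 in white light. UV-B replicate 2 stood well above the other UV-B arrays, and the mean difference was 2.04 ± 0.60 (adjusted p = 0.0194). The adjacent gene XTH19 was dim and had a difference of −0.19, and whether the probes tell these related transcripts apart was not tested. XTH29, a dim gene, had levels of 3.35, 3.44 and 4.66 under UV-B, against 2.96, 2.93 and 2.66 in white light. Its rise of 0.97 ± 0.28 (adjusted p = 0.0187) drew mainly on UV-B replicate 3. Without that array the rise was 0.55 and still called.

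Of the 5 CSLC genes, the xyloglucan backbone synthases, 3 fell. CSLC5 had levels of 4.74, 5.44 and 5.02 under UV-B, against 6.03, 6.49 and 6.05 in wildtype in white light, a difference of −1.12 ± 0.25 (adjusted p = 0.00383). CSLC08 had 3.90, 4.10 and 3.95 under UV-B, against 4.91, 5.54 and 4.93 in white light, a difference of −1.14 ± 0.23 (adjusted p = 0.00182). CSLC04 differed by less but spread little, at 6.99, 7.23 and 7.24 under UV-B, against 7.74, 8.16 and 8.33 in white light, a difference of −0.92 ± 0.14 (adjusted p = 0.000189). CSLC6 had a difference of −0.05 with levels between 5.14 and 5.92 over all arrays, and CSLC12 was dim. CSLA03, a mannan synthase gene, had 5.84, 5.37 and 5.47 under UV-B, against 6.30, 6.69 and 6.94 in white light, a difference of −1.08 ± 0.21 (adjusted p = 0.00165). CSLA01 was dim, and CSLD2 had a difference of 0.29 ± 0.14 that was not called (adjusted p = 0.13).

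Leaving out 1 array ended 5 of the wildtype calls at least once. EXLA1 was not called without white-light replicate 2 (−1.49, adjusted p = 0.0597), white-light replicate 3 (−1.34, 0.0715) or UV-B replicate 3 (−1.40, 0.0677). EXLA2 was not called without white-light replicate 2 (−0.53, 0.0775) or UV-B replicate 2 (−0.56, 0.0671). EXPA4 was not called without white-light replicate 1 (−0.97, 0.0931), 2 (−0.84, 0.148) or 3 (−1.12, 0.0537), or UV-B replicate 1 (−0.80, 0.15) or 3 (−0.83, 0.152). These 3 expansin calls are the least secure of the 8, while those of EXPA8, EXPA16, EXPB1, EXPB3 and EXLB1 held without any single array. XTH18 was not called without white-light replicate 2 (1.98, 0.0564) or UV-B replicate 2 (1.35, 0.0881). XTH29 was not called without white-light replicate 3 (adjusted p = 0.0697), nor with only the compared groups in the fit (0.085). XTH32 gained a call without UV-B replicate 2 (−0.68, adjusted p = 0.0327), and EXPA20 without UV-B replicate 3 (−0.41, 0.0332).

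Some leaf markers moved with UV-B as well. Of the 4 mesophyll markers 2 were called under UV-B in each genotype, where 18.3% of all probe sets were lower in wildtype and 19.0% in uvr8-1. These were LHCB4.1 and LHCB4.2, which encode light-harvesting proteins. In wildtype LHCB4.2 fell by 2.34 ± 0.29 (adjusted p = 4.69e-05) and LHCB4.1 by 0.34 ± 0.10 (0.0155), while LHCB4.3 had a difference of 0.41 ± 0.26 and RCA, the Rubisco activase gene, of −0.07 ± 0.08, neither called. The 4-marker mean given next thus moved mainly with LHCB4.2. The mean level of the 4 markers ran from 9.88 to 10.02 on the wildtype UV-B arrays, against 10.41 to 10.77 in white light. It ran from 9.75 to 9.95 on the uvr8-1 UV-B arrays, against 10.43 to 10.58 in white light. No root, pollen or xylem marker was called in wildtype, and PYK10 fell by 0.76 ± 0.23 in uvr8-1 (adjusted p = 0.0201). The part of these shifts in the results on cell wall genes was not tested, and in whole leaves fewer cells of a type and less RNA per cell cannot be told apart.

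In uvr8-1, mutated in the UV-B photoreceptor gene, UV-B lowered 13 of the 37 genes and raised 2. Over all probe sets 31.9% were called, 19.0% lower and 12.9% higher, and the cell wall genes' share called lower was 35.1%. Of the genes that were not dim 13 of 21 (61.9%) were lower, against 28.8% of such probe sets. By family, 6 of 19 expansins were lower and none higher, 3 of 10 XTH genes were lower and 1 higher, and 4 of 8 CSL genes were lower and 1 higher. The median difference was −0.07, against −0.03 over all probe sets.

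The calls of the 2 genotypes coincided in 13 genes, always in the same direction, which is 81.2% of the wildtype calls and 86.7% of the uvr8-1 calls. Over all probe sets the calls of the 2 genotypes coincided in 76.7% of the wildtype calls and 73.4% of the uvr8-1 calls, close to these shares. Counted per gene, 35.1% of the 37 were called in both, against 23.4% of all probe sets. The 12 genes lower in both were EXPA8, EXPB1, EXPB3, EXLA1, EXLA2, EXLB1, XTH16, XTH27, CSLA03, CSLC04, CSLC5 and CSLC08, and XTH18 was higher in both. The fall was smaller in uvr8-1 than in wildtype for 8 of these 12, though none of the 12 was called for a difference in response. Over all probe sets, called or not and in either direction, 53.8% had a higher UV-B minus white light difference in uvr8-1 than in wildtype. The share among probe sets lower in both genotypes was not computed. Across the 37 genes the differences in the 2 genotypes had a Pearson correlation of 0.90, given as a description because genes are not independent replicates and equally numbered arrays of the 2 genotypes deviate together. EXPA4, EXPA16 and XTH29 were called in wildtype alone, and XTH32 and CSLD2 in uvr8-1 alone.

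**Figure D2:**
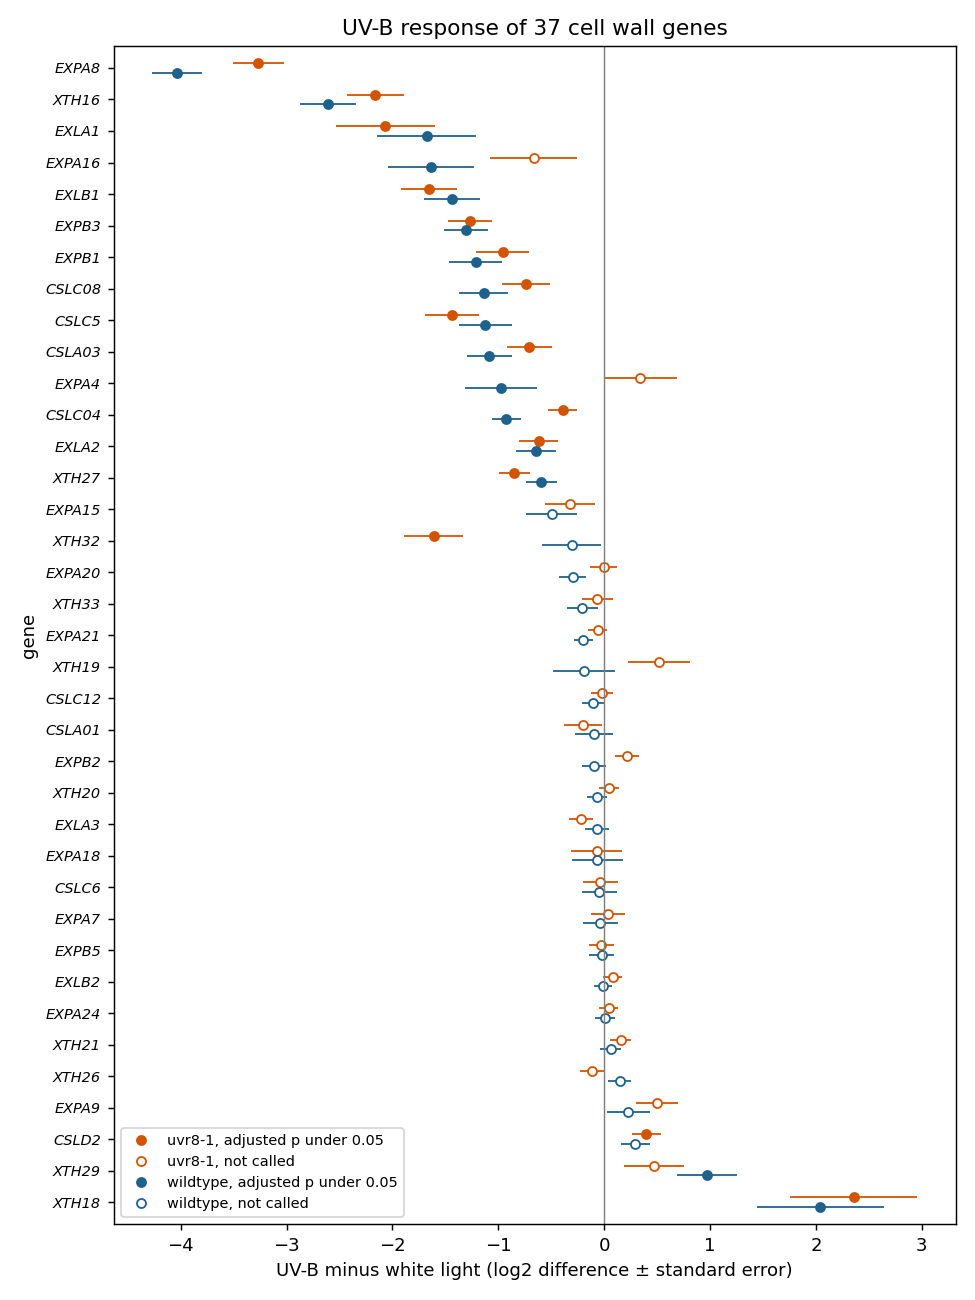
UV-B minus white light (log2 difference ± standard error, horizontal axis) for each of the 37 genes, ordered by the wildtype difference. Orange is uvr8-1, blue is wildtype, filled points were called and open points were not. EXPA8 lies farthest to the left in both genotypes and XTH18 farthest to the right. XTH32 shows a called fall in uvr8-1 beside an open point at −0.31 in wildtype.

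EXPA8 had levels of 5.29, 4.77 and 5.14 on the uvr8-1 UV-B arrays, against 7.89, 8.34 and 8.76 in white light. All 3 UV-B arrays lay far below the white-light arrays. EXPA8 fell by 3.27 ± 0.24 (9.62-fold, adjusted p = 5.03e-07), again the largest difference of the 37. EXLA1 had 4.43, 5.28 and 4.21 under UV-B, against 6.21, 6.64 and 7.28 in white light, a difference of −2.07 ± 0.47 (adjusted p = 0.00377). EXLB1 had 4.20, 3.86 and 3.85 under UV-B, against 5.76, 6.25 and 4.87 in white light, a difference of −1.65 ± 0.26 (adjusted p = 0.000303). These expansin-like genes thus separated in uvr8-1 too, with white-light replicate 3 of EXLB1 the closest to the UV-B arrays. EXPB3 had 4.59, 4.85 and 4.62 under UV-B, against 5.54, 6.27 and 6.05 in white light, a difference of −1.27 ± 0.21 (adjusted p = 0.000427). EXPB1 fell by 0.96 ± 0.25 (adjusted p = 0.00937) and EXLA2 by 0.62 ± 0.19 (adjusted p = 0.0203). EXPA16 and EXPA4, called in wildtype, were not called in uvr8-1. EXPA16 had 5.59, 4.03 and 4.45 under UV-B, against 6.11, 5.36 and 4.59 in white light. EXPA4 had 6.52, 7.10 and 6.94 under UV-B, against 5.85, 7.0 and 6.69 in white light. Both genes' UV-B and white-light arrays overlapped, with differences of −0.67 ± 0.41 for EXPA16 and 0.34 ± 0.34 for EXPA4.

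XTH16 had levels of 4.59, 4.05 and 3.66 under UV-B in uvr8-1, against 6.29, 6.55 and 5.95 in white light, and fell by 2.16 ± 0.27 (adjusted p = 4.08e-05). XTH18 had 4.96, 7.60 and 5.78 under UV-B, against 3.61, 3.82 and 3.84 in white light. As in wildtype, UV-B replicate 2 was the highest array, and the difference was 2.36 ± 0.60 (adjusted p = 0.00808), or 1.61 without that array (adjusted p = 0.0338). XTH27 fell by 0.85 ± 0.15 (adjusted p = 0.00057). XTH32 belongs to the XTH subgroup in which xyloglucan hydrolysis has been shown. It had 5.12, 5.16 and 4.70 under UV-B in uvr8-1, against 6.54, 6.34 and 6.94 in white light, a difference of −1.61 ± 0.28 (adjusted p = 0.000526). In wildtype its UV-B levels of 6.12, 7.27 and 6.18 overlapped the 6.87, 6.57 and 7.06 of white light, and the difference of −0.31 ± 0.28 was not called.

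CSLC5 had levels of 4.48, 5.31 and 4.96 under UV-B in uvr8-1, against 6.25, 6.54 and 6.27 in white light, a difference of −1.44 ± 0.25 (adjusted p = 0.000624). The other CSL calls were smaller. CSLC08 fell by 0.74 ± 0.23 (adjusted p = 0.0241) with 1 UV-B array overlapping the white-light range, CSLA03 by 0.71 ± 0.21 (0.0217) and CSLC04 by 0.39 ± 0.14 (0.0441). CSLD2, known from root hair growth, rose by 0.40 ± 0.14 (adjusted p = 0.0388), with levels of 5.76, 6.29 and 6.05 under UV-B that overlapped the 5.51, 5.77 and 5.63 of white light. With the replicate number as a block, which applies to these groups, EXPA9 was called too (0.50, adjusted p = 0.0415).

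Of the uvr8-1 calls, 5 were lost without some single arrays, namely those of CSLA03, CSLC04, CSLC08, CSLD2 and EXLA2. CSLA03 was not called without white-light replicate 2 (−0.56, adjusted p = 0.0989) or 3 (−0.61, 0.0861) or UV-B replicate 3 (−0.58, 0.095). CSLC08 was not called without white-light replicate 2 (−0.50, 0.117) or 3 (−0.73, 0.0615) or UV-B replicate 3 (−0.58, 0.107). CSLC04 lost its call whichever of the 6 arrays was left out, with differences between −0.35 and −0.43 and adjusted p between 0.0567 and 0.137. Among the CSL genes lower in uvr8-1, CSLC5 alone kept its call without each array in turn. CSLD2 was not called without white-light replicate 1 (0.33, 0.129) or 3 (0.39, 0.0914) or UV-B replicate 2 (0.27, 0.183) or 3 (0.39, 0.0955). EXLA2 was not called without white-light replicate 2 (−0.56, 0.0708) or 3 (−0.53, 0.083) or UV-B replicate 2 (−0.51, 0.0906). Calls were gained by EXPA9 without white-light replicate 1 (0.64, adjusted p = 0.0395) or UV-B replicate 1 (0.62, 0.0458). Without UV-B replicate 1, EXPA16 (−1.12, 0.0367) and XTH19 (0.82, 0.0377) also gained calls. The 3′ minus 5′ difference of the controls ran from 2.08 to 2.36 on the uvr8-1 white-light arrays and from 1.92 to 1.95 under UV-B. These groups did not overlap, so UV-B and this difference cannot be told apart in uvr8-1. With it as a covariate, CSLC08 (−0.75, adjusted p = 0.0608) and CSLD2 (0.39, 0.0965) were not called. EXPA15 (−0.67, 0.0326) and EXPA9 (0.68, 0.0353) gained calls in that fit.

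The difference between the 2 responses, uvr8-1 minus wildtype, was tested directly as an interaction. None of the 37 genes was called in limma's test, against 0.857% of all probe sets. An unadjusted p under 0.05 was found for 4 of the 37 genes, against 7.07% of all probe sets. XTH32 had a difference of −1.30 (95% interval −2.14 to −0.46, adjusted p = 0.266), the lower side meaning a greater fall in uvr8-1. EXPA4 had 1.32 (0.27 to 2.36, adjusted p = 0.483), EXPA8 0.77 (0.04 to 1.49, 0.667) and CSLC04 0.53 (0.11 to 0.95, 0.477). The intervals were wide: that of XTH18 ran from −1.52 to 2.15 and that of XTH16 from −0.37 to 1.26. The calls that differ between the genotypes, such as EXPA16 (0.97, −0.28 to 2.22), were thus not shown to differ in response, and equal responses were not shown either. The median over the 37 genes was 0.09, against 0.02 over all probe sets.

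Under UV-B, uvr8-1 differed from wildtype in 2 of the 37 genes, 1 higher and 1 lower, against 2.41% of all probe sets called (0.422% higher, 1.99% lower). The median over the 37 genes was 0.05, against 0.02 over all probe sets. XTH32 had levels of 5.12, 5.16 and 4.70 in uvr8-1, against 6.12, 7.27 and 6.18 in wildtype. The groups did not overlap, and the difference was −1.53 ± 0.28 (adjusted p = 0.00726). CSLC04 had 7.83, 7.72 and 7.87 in uvr8-1, against 6.99, 7.23 and 7.24 in wildtype, a difference of 0.65 ± 0.14 (adjusted p = 0.0223). The next smallest p-values belonged to EXPA4 (0.96 ± 0.34, adjusted p = 0.225), XTH19 (0.76 ± 0.29, 0.271) and EXPA8 (0.52 ± 0.24, 0.41), none of them called. Without wildtype UV-B replicate 2, the array on which XTH32 was highest, the XTH32 difference was −1.16 (adjusted p = 0.0156). With only the 2 compared groups in the fit neither gene was called (XTH32 0.138, CSLC04 0.0691). CSLC04 was not called without wildtype UV-B replicate 1 (0.57, adjusted p = 0.107) or 2 (0.69, 0.0571) or uvr8-1 UV-B replicate 1 (0.64, 0.0698) or 3 (0.62, 0.0844).

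**Figure D3:**
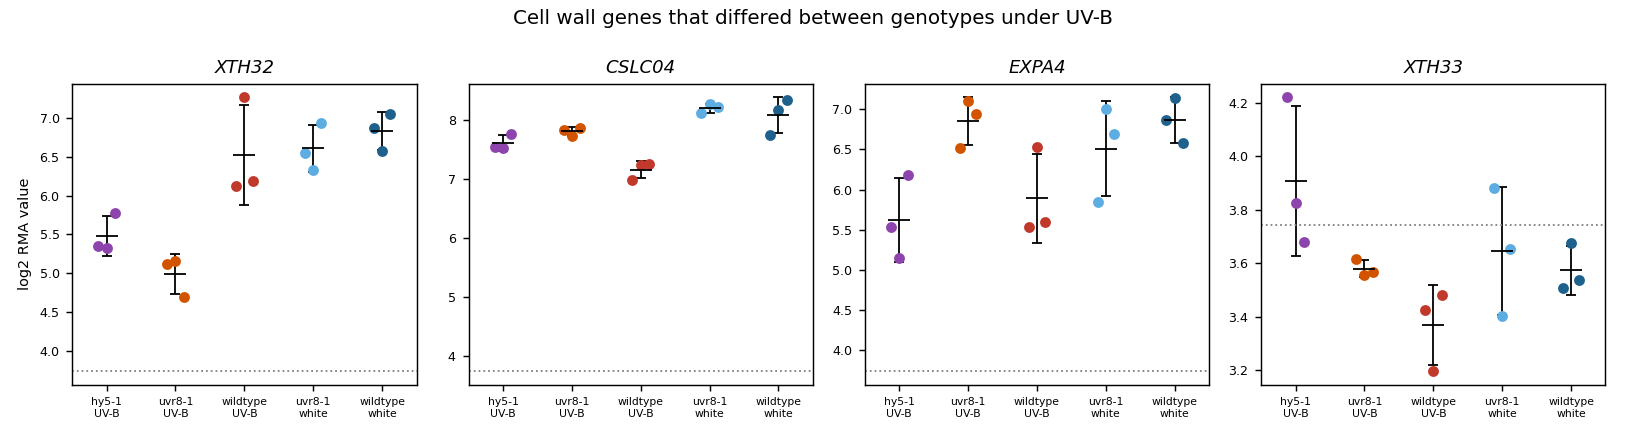
Levels (log2 RMA value, vertical axis) of the 4 genes called between genotypes under UV-B. Dots are single arrays, the bar and whiskers are the mean ± SD of 3 arrays, and the dotted line is the dim limit of 3.74. XTH32 is lower in both mutants than in wildtype under UV-B, where replicate 2 stands apart at 7.27, and XTH33 lies around the dim limit.

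In white light, uvr8-1 and wildtype were not told apart by any of the 37 genes. None was called by limma, against 0.0176% of all probe sets. None had an unadjusted p under 0.05, against 1.63% of all probe sets. The differences, uvr8-1 minus wildtype, ran from −0.38 for CSLC08 to 0.60 for EXLA1, whose 95% interval was −0.41 to 1.61. The median was −0.03, against 0.01 over all probe sets. EXPA8 averaged 8.33 ± 0.44 in uvr8-1 and 8.58 ± 0.18 in wildtype, and XTH16 averaged 6.26 ± 0.30 in uvr8-1 and 6.48 ± 0.36 in wildtype (SD, n = 3 each).

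Under UV-B, hy5-1 differed from wildtype in 2 of the 37 genes, 1 higher and 1 lower, against 7.59% of all probe sets called (2.77% higher, 4.81% lower). The median was 0.15, against 0.04 over all probe sets. XTH32 had levels of 5.35, 5.32 and 5.77 in hy5-1, against 6.12, 7.27 and 6.18 in wildtype. All hy5-1 arrays lay below the wildtype arrays, and the difference was −1.04 ± 0.28 (adjusted p = 0.0377). The wildtype UV-B arrays are the same as those set against uvr8-1 above. XTH33, a dim gene whose product is a membrane-anchored XTH, had 4.22, 3.82 and 3.68 in hy5-1, against 3.43, 3.20 and 3.48 in wildtype, a difference of 0.54 ± 0.15 (adjusted p = 0.0417). A further 8 genes had an unadjusted p under 0.05 without a call, among them EXLA1 (1.14 ± 0.47, adjusted p = 0.153), XTH16 (0.70 ± 0.27, 0.124) and CSLC04 (0.45 ± 0.14, 0.0627). In all, 10 of the 37 genes had an unadjusted p under 0.05 in limma's test, against 25.0% of all probe sets.

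Both calls were lost without some single arrays, and the mesophyll marker LHCB4.3 was also lower in hy5-1 (−1.01 ± 0.26, adjusted p = 0.0327). The other 3 mesophyll markers were not called, with differences of 0.37 for LHCB4.2, −0.06 for LHCB4.1 and −0.04 for RCA, and the part of LHCB4.3 in the results was not tested. XTH32 was not called without wildtype UV-B replicate 2 (−0.67, adjusted p = 0.11) or hy5-1 replicate 1 (−0.98, 0.119) or 2 (−0.96, 0.133). XTH33 was not called without wildtype UV-B replicate 1 (0.57, 0.0686), 2 (0.46, 0.149) or 3 (0.60, 0.0605) or hy5-1 replicate 1 (0.39, 0.149) or 2 (0.58, 0.0924). With the 3′ minus 5′ difference of the control probe sets as a covariate, XTH32 had −0.80 and XTH33 0.08, both at an adjusted p of 0.999. Genotype and this difference cannot be told apart, since the hy5-1 arrays do not overlap the others in it. Calls were gained by XTH16 without wildtype UV-B replicate 1 (0.97, adjusted p = 0.0474), by EXPA20 without wildtype UV-B replicate 3 (0.49, 0.0452) and by EXPB2 without hy5-1 replicate 2 (0.42, 0.0392).

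Set against uvr8-1 under UV-B, hy5-1 differed in 1 of the 37 genes, against 13.8% of all probe sets called (5.37% higher, 8.47% lower). The median was 0.13, against 0.04 over all probe sets. EXPA4 had levels of 5.53, 5.15 and 6.19 in hy5-1, against 6.52, 7.10 and 6.94 in uvr8-1. The groups did not overlap, and the difference was −1.23 ± 0.34 (adjusted p = 0.0322). EXPA4 was not called without uvr8-1 UV-B replicate 2 (−1.10, 0.108) or 3 (−1.18, 0.0814) or hy5-1 replicate 1 (−1.18, 0.0951) or 2 (−0.99, 0.133), and with the 3′ minus 5′ covariate its difference was −0.02. EXPB2 gained a call without hy5-1 replicate 2 (0.36, 0.0453). XTH32 was not called here: it averaged 5.48 ± 0.25 in hy5-1 and 5.0 ± 0.26 in uvr8-1 (SD, n = 3 each).

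Of the 19 expansins, 18 had a higher mean level in hy5-1 than in wildtype under UV-B, though none was called. The exception was EXPA4. The 8 dim expansins were all positive, and 76.4% of all dim probe sets were positive too, with a median of 0.10. Of the 11 brighter expansins 10 were positive, where 43.0% of all brighter probe sets were positive and their median was −0.06. The 3′ minus 5′ difference of the controls averaged 2.78 in hy5-1 and 1.88 in wildtype under UV-B, without overlap, and its part in this pattern was not tested. EXPA8 had levels of 5.01, 4.89 and 5.16 in hy5-1, against 5.04, 4.44 and 4.17 in wildtype, and was not called. Of the other genes lowered by UV-B in wildtype, XTH16, EXLA1, EXLB1, CSLC5 and CSLA03 are given by level below. The rest differed, hy5-1 minus wildtype, by 0.49 for EXPB3, 0.45 for CSLC04, 0.14 for EXPA16 and 0.12 for EXPB1. EXLA2 differed by 0.02, CSLC08 by −0.03, XTH27 by −0.11 and EXPA4 by −0.27, and none of these genes was called. All were called lower on the same wildtype UV-B arrays, so the comparison is not independent of that choice. XTH16 had 4.56, 4.55 and 4.63 in hy5-1, against 4.41, 3.55 and 3.66 in wildtype. EXLA1 had 5.67, 6.12 and 4.95 in hy5-1, against 4.45, 4.97 and 3.90 in wildtype. The hy5-1 arrays of XTH16 all lay above the wildtype arrays, while those of EXLA1 overlapped them by 1 array. EXLB1 had 4.64, 4.68 and 4.34 in hy5-1, against 4.30, 3.95 and 3.88 in wildtype, without overlap and without a call (0.51 ± 0.26, adjusted p = 0.248). CSLC5 averaged 4.82 ± 0.42 in hy5-1 and 5.07 ± 0.36 in wildtype, and CSLA03 averaged 5.56 ± 0.05 in hy5-1 and 5.56 ± 0.25 in wildtype (SD, n = 3 each). XTH18 had 6.85, 7.25 and 6.37 in hy5-1, against 4.81, 6.96 and 4.96 in wildtype, and was not called either. UV-B replicate 2 of wildtype was the only array of that group within the hy5-1 range.

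**Figure D4:**
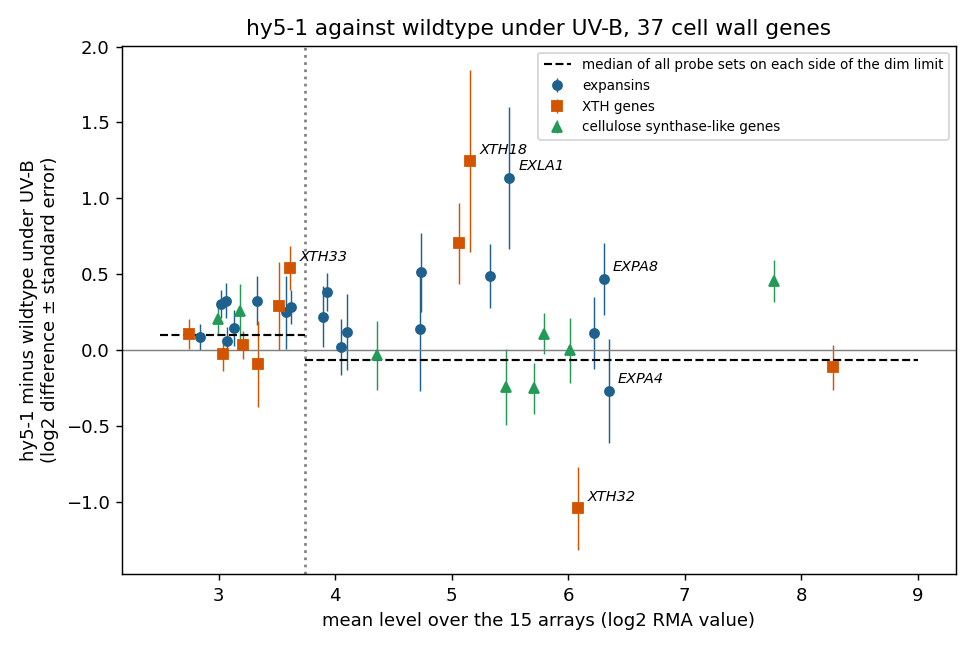
Level in hy5-1 minus level in wildtype, both under UV-B (log2 difference ± standard error, vertical axis) against the mean level over 15 arrays (horizontal axis) for the 37 genes. The vertical dotted line is the dim limit of 3.74, and dashed lines are the medians of all probe sets on each side of it, 0.10 and −0.06. Most expansins lie above the dashed lines, XTH32 lies lowest, and no expansin was called.

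Spread between replicates differed among the 37 genes. The pooled SD within groups ran from 0.08 to 0.84, with a median of 0.24, against 0.19 over all probe sets. It was highest for XTH18 (0.84), EXLA1 (0.65), EXPA16 (0.57) and EXPA4 (0.47). In all, 19 of the 37 genes were called in at least 1 comparison, 17 of the 21 brighter genes and 2 of the 16 dim ones. Over all probe sets 45.5% were called in at least 1 comparison, 66.5% of the brighter and 14.1% of the dim ones. The 18 genes with no call were EXPA7, EXPA9, EXPA15, EXPA18, EXPA20, EXPA21, EXPA24, EXPB2, EXPB5, EXLA3, EXLB2, XTH19, XTH20, XTH21, XTH26, CSLA01, CSLC6 and CSLC12. Of these, EXPA9, EXPA15, EXPA20 and CSLC6 were not dim. EXPA15 had a level between 5.55 and 6.64 on every array, and differences of −0.50 in wildtype and −0.32 in uvr8-1.

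Other genes of the wall and of growth hormones were counted beside them. Of 50 measured genes with the name of a wall enzyme or wall protein, 13 were lower and 1 higher under UV-B in wildtype, where 18.3% of all probe sets were lower and 12.2% higher. In uvr8-1, 12 were lower and 1 higher, against 19.0% and 12.9% of all probe sets. The 50 include PRP39 and PRP39-2, which act in mRNA processing and share only the prefix, and PRP39-2 is among those lower in both genotypes. Without this pair, 12 of 48 were lower in wildtype and 11 in uvr8-1, with 1 higher in each. The 4 with the smallest p in wildtype were TBL37 (2.12 ± 0.25, adjusted p = 2.68e-05), TBL25 (−2.31 ± 0.29, 4.42e-05), TBL45 (−1.63 ± 0.22, 7.09e-05) and GH9B7 (−1.14 ± 0.16, 0.000141). TBL proteins belong to a family that acetylates wall polysaccharides, and GH9B7 is a glycosyl hydrolase of the endoglucanase family. None of the 50 was called in the interaction (0.857% of all probe sets) or between uvr8-1 and wildtype (2.41% under UV-B, 0.0176% in white light). Between hy5-1 and wildtype 1 was called (TBL26, 0.47 ± 0.11, adjusted p = 0.0275), against 7.59% of all probe sets. Between hy5-1 and uvr8-1 it was also 1 (TBL28, 0.88 ± 0.18, 0.00848), against 13.8%. The part of the 3′ minus 5′ difference of the hy5-1 arrays in these calls was not tested. The median in wildtype was −0.14, against −0.04 over all probe sets. Of 13 measured genes of growth hormone action, 1 was lower in wildtype, the transcription factor gene TCP15 (−1.38 ± 0.37, adjusted p = 0.0118), and none higher, a smaller share than the 30.5% called over all probe sets. In uvr8-1, TCP15 was also lower (−1.17 ± 0.37, 0.0271) and IAA30, an auxin-response repressor gene, was higher (0.44 ± 0.13, 0.0158). Over all probe sets 31.9% were called there. Between hy5-1 and uvr8-1 under UV-B, YUC4, an auxin synthesis gene, was higher (0.31 ± 0.09, adjusted p = 0.0342) and IAA29, a further repressor gene, was lower (−1.20 ± 0.35, 0.0388). Over all probe sets 13.8% were called in that comparison.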

How the data were processed

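Leaf RNA was hybridised to 15 Affymetrix ATH1 arrays of 1 colour. The deposited values are log2 values made by the authors with RMA, per the submitters' processing notes, which gives each probe set 1 value per array. The notes give neither the RMA version nor the background step, nor whether all 15 arrays went through 1 RMA run. In separate runs, differences between arrays of different runs, such as hy5-1 against the others, would include the difference between runs. The values ran from 1.99 to 13.1 and were used without further normalisation. Of 22810 probe sets, 64 controls were set aside and 22746 tested; 13513 had 1 gene in GEO's platform annotation, 503 several and 8730 none. A RefSeq gene table (assembly TAIR10.1) matched 13436 of the 13513 and all 37 members, and gave symbols and neighbours. No build is named, so no coordinates are given. The table lists 113 genes that fit the naming rule, and 2 probe sets shared by several of them were left out. No mature, promoter or protein sequences were used here.

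Group means were estimated in a single limma 3.58.1 fit (R 4.3.3) over the 15 arrays (10 residual and 3.09 prior degrees of freedom). Tests were 2-sided, with Benjamini-Hochberg adjustment over 22746 probe sets in each of 7 contrasts. The procedure was run on simulated data with independent noise on each array. Those data held no link between equally numbered arrays and no 3′ minus 5′ shift, so the run cannot show how the fit behaves under either. Dim means below the 40th percentile of probe set means. Each called member is named, and those called with a difference of at least 1 are given array by array; of the other cell wall list the 4 with the smallest p in wildtype are named. The members, lists and tests were chosen with earlier results of these data known. Tables and plots were made with Python 3.11.15, pandas 2.3.3, numpy 2.4.6 and matplotlib 3.10.9.

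Replicate numbers in the labels were checked for pairing. Deviations from group means correlated between equally numbered wildtype and uvr8-1 arrays by 0.45 to 0.68 under UV-B and 0.48 to 0.66 in white light. Between the lights they correlated by 0.10 to 0.33 in wildtype and 0.21 to 0.33 in uvr8-1. All exceeded 0.1, so these numbers were taken to pair the arrays. Alternatives covered array scaling, a filter on dim probe sets, an intensity trend, the arrays in the fit, the replicate block, a 3′ minus 5′ covariate and leaving out each array.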

Additional observations from a re-analysis of the deposited data

Results flagged for a closer look

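EXPA4, EXPB2 and XTH26 were singled out because each UV-B array lay on one side of the white-light mean in uvr8-1 and on the other side in wildtype. EXPA4 under UV-B deviated by 0.01, 0.59 and 0.43 from its white-light mean in uvr8-1, and by −1.33, −0.33 and −1.27 in wildtype. Its responses differed by 1.32 ± 0.48, uvr8-1 minus wildtype, which the interaction test did not call (adjusted p = 0.483). EXPB2 differed by 0.31 (adjusted p = 0.78) and XTH26 by −0.26 (adjusted p = 0.865). Neither was called, and both genes are dim.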

How the results depend on the processing

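Of 36 calls of single cell wall genes over the comparisons, 21 held under every alternative run and 15 were lost under at least 1. Of 466 refits of called results 65 gave no call and none reversed the direction. Leaving out 1 array gave 12 to 15 called genes in wildtype, 10 to 17 in uvr8-1, 0 in the interaction and in white light, 1 to 2 for uvr8-1 minus wildtype under UV-B, 0 to 2 for hy5-1 minus wildtype and 0 to 1 for hy5-1 minus uvr8-1. With only the compared groups in the fit, 0 genes were called for uvr8-1 minus wildtype under UV-B and 0 for hy5-1 minus wildtype. For hy5-1 minus wildtype, 1 gene was called with quantile normalisation, 1 without the dimmest 40% of probe sets and 0 with the 3′ minus 5′ covariate. For hy5-1 minus uvr8-1, 2 genes were called with median centring, 2 with quantile normalisation, 2 with an intensity trend and 0 with the covariate. The causes were not tested. The replicate block gave 16 calls in wildtype, 16 in uvr8-1, 0 in the interaction and 2 for uvr8-1 minus wildtype under UV-B. In these groups it changed no call other than that of EXPA9. The numbers did not pair hy5-1 arrays with others (same-number correlations of 0.00 to 0.12 with wildtype and −0.03 to 0.12 with uvr8-1), and there the block gave 4 and 3 calls. Over all probe sets, hy5-1 minus wildtype gave 1726 calls, against 787 with only the compared groups, 2857 with the block, 2 with the covariate, and 679, 703 and 550 without wildtype UV-B replicate 2 and hy5-1 replicates 1 and 2. Likewise hy5-1 minus uvr8-1 gave 3148, against 8 with the covariate, and 1724, 1593 and 1493 without uvr8-1 UV-B replicate 2 and hy5-1 replicates 1 and 2. For uvr8-1 minus wildtype under UV-B the count was 549, against 213 with only the compared groups and 350 and 884 without wildtype UV-B replicates 2 and 3. The interaction gave 195, against 129 with the covariate and 334 without wildtype UV-B replicate 3, and white light 4, against 0 with only the compared groups and 2 with the covariate. Each member had 1 single-gene probe set, so the lowest-mean probe set could not be tried. Among 16 dim genes small changes may go unseen.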
